A study of Mus musculus with 6 samples.

Results

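Aminoacyl-tRNA synthetases join each amino acid to its tRNA. The genes described here are 36 of the 16472 genes in the authors' deposited table, listed by symbol; no measured value enters the rule, though earlier results of these data were known when it was written. They fall into 20 genes for the cytosolic enzymes and 16 for the mitochondrial ones, whose symbols end in 2. HT22, an immortalised mouse hippocampal line, was exposed for 16 h to AA147, a small molecule known to activate the unfolded protein response factor ATF6 and the oxidative stress regulator NRF2, or to DMSO vehicle. The labels give the AA147 dose as 10 mM, a unit that could not be checked here and may be an error. Each group had 3 libraries of non-stranded mRNA from this 1 line, with no genetic change named, and the labels do not say whether they came from separate cultures. The comparison asks how the transcripts of these enzymes differ after exposure to AA147.

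Cells make separate sets of synthetases for cytosolic and mitochondrial translation, nearly all from different nuclear genes. Glycine and lysine are exceptions, since Gars and Kars each also encode the mitochondrial enzyme. When the translation factor eIF2alpha is phosphorylated, in the integrated stress response, translation of ATF4 rises and this factor induces genes for amino acid synthesis, amino acid import and many cytosolic synthetases. ATF4 acts in dimers, often with C/EBP proteins, at composite elements whose core is TGATGNAA. Among the cytosolic members, 13 were placed from general knowledge on a list of known ATF4 targets, and the other 7 were Dars, Farsa, Farsb, Hars, Kars, Qars and Rars.

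The values come from 1 line per gene over the libraries of both groups, so values of single libraries are not analysed here. Each gene has a mean normalized count over both groups, a log2 fold change with its standard error (SE) and an adjusted p. The table does not name the numerator of the fold change. A positive value is read here as higher with AA147, and every direction below depends on that reading. A gene is called here where the authors' deposited table gives an adjusted p below 0.05, and these p-values measure only the spread between the libraries, which may be technical. With whole cultures, fewer transcripts per cell and fewer expressing cells cannot be told apart.

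As a check of the label, 2 of 9 neuronal marker genes were in the authors' deposited table: Tubb3, a neuronal tubulin, at a mean of 1199, and Slc17a7, a vesicular glutamate transporter, at a mean of 3.93. Rbfox3, Map2, Nefl, Nefm, Syp, Snap25 and Gad1 were not analysed here. The mesenchymal genes Col1a1 and Vim had means of 139176 and 152806 per the authors' deposited table. Tubb3 lay above the median mean of 740 over all tested genes. A neuronal state cannot be judged from so few markers with a value, and the mesenchymal ones were at high levels. The cells are therefore called HT22 cells below and not neurons. Of 4 glial and immune markers Mbp was present at a mean of 2.00, and Gfap, Olig2 and Aif1 were not analysed here. Tubb3 rose by 0.43, Col1a1 and Col3a1 had called values of -1.52 and -1.11, and Vim lay at -0.08 per the authors' deposited table. The part of these shifts in the synthetase values was not tested.

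The core element was searched in the RefSeq promoter windows of mouse assembly GRCm38.p6, which run from 250 bases before to 50 bases after each start site. The motif was TGATGNAA on either strand, and its reverse complement reads TTNCATCA. Windows were found for 27 of the 36 members, and Cars, Lars, Nars, Vars, Wars, Hars, Rars, Hars2 and Pars2 had none. A match occurred in 5 of the 8 listed ATF4 targets with a window, in 0 of the other 5 cytosolic members and in 0 of 14 mitochondrial members. The background was 3.97% of all 32851 windows, and 2.83% of the 10116 genes that had both a window and an adjusted p. The targets were listed from general knowledge, which may itself draw on such elements, so their share of matches is not separate evidence. A match is a description of the letters and does not show that a factor binds there.

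Matches in members are shown because they mark the genes whose fold changes are set beside them below, each in 30 bases of the gene's sense strand, 5′ to 3′, with the motif in capitals. The Aars match shown begins 9 bases after the start site. In Gars and Tars the match begins 30 and 15 bases before the start site, and in Iars and Yars 7 and 3 bases after it.
Aars, chr8:111033840-111033869, plus strand: agcgggtcactTTTCATCAgagcgctctga
Gars, chr6:55037960-55037989, plus strand: tggctgcgctaTTTCATCAtgcaccgggcg
Iars, chr13:49682126-49682155, plus strand: cactgtcagtaTTGCATCAcctccagacgc
Tars, chr15:11399655-11399684, minus strand: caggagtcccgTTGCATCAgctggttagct
Yars, chr4:129189895-129189924, plus strand: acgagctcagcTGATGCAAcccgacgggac

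For comparison, 7 of 25 genes with a window on a list of other ATF4 pathway genes held a match. Of these, Chac1, Slc7a11 and Nupr1 were not called in the authors' deposited table (adjusted p 0.0841, 0.179 and 0.235). Other genes of the list, among them Aldh18a1, Psph and Psat1, were called negative with a window and no match. The called genes with a match are shown: Asns, Trib3, Pycr1 and Vldlr. They encode asparagine synthetase, a pseudokinase that feeds back on ATF4, a proline synthesis enzyme and a lipoprotein receptor.
Asns, chr6:7693214-7693243, minus strand: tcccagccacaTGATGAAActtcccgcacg
Trib3, chr2:152344028-152344057, minus strand: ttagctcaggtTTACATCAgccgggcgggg
Pycr1, chr11:120643833-120643862, minus strand: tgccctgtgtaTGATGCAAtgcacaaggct
Vldlr, chr19:27216809-27216838, plus strand: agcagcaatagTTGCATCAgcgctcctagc

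The values of the cytosolic synthetases differed along the ATF4 list, which was drawn up with earlier results of these data known. The split is therefore a description and was not tested. Of its 13 genes, 10 were called negative in the authors' deposited table and 0 positive, and the values of all 13 lay below 0, from -0.44 to -0.06. Of the other 7 cytosolic genes, 0 were called negative and 1 positive, with values from -0.13 to 0.18. The median log2 fold change was -0.28 for the listed targets and 0.12 for the other cytosolic members, beside 0.01 for all 13597 tested genes. Over those tested genes the authors' deposited table called 20.2%, with 11.1% negative and 9.05% positive. Calls are more frequent at high expression, so a second background took the 2413 genes within the range of means of the cytosolic members, 2833 to 20548. There 31.5% were called, 19% negative and 12.5% positive, with a median of -0.004. Of those 2413 genes, 1237 had values below 0 and 1176 above it. With a Bonferroni adjustment 5 of the 13 listed targets were called negative, and against an absolute log2 fold change of 0.2 the count was 2.

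**Figure D1:**
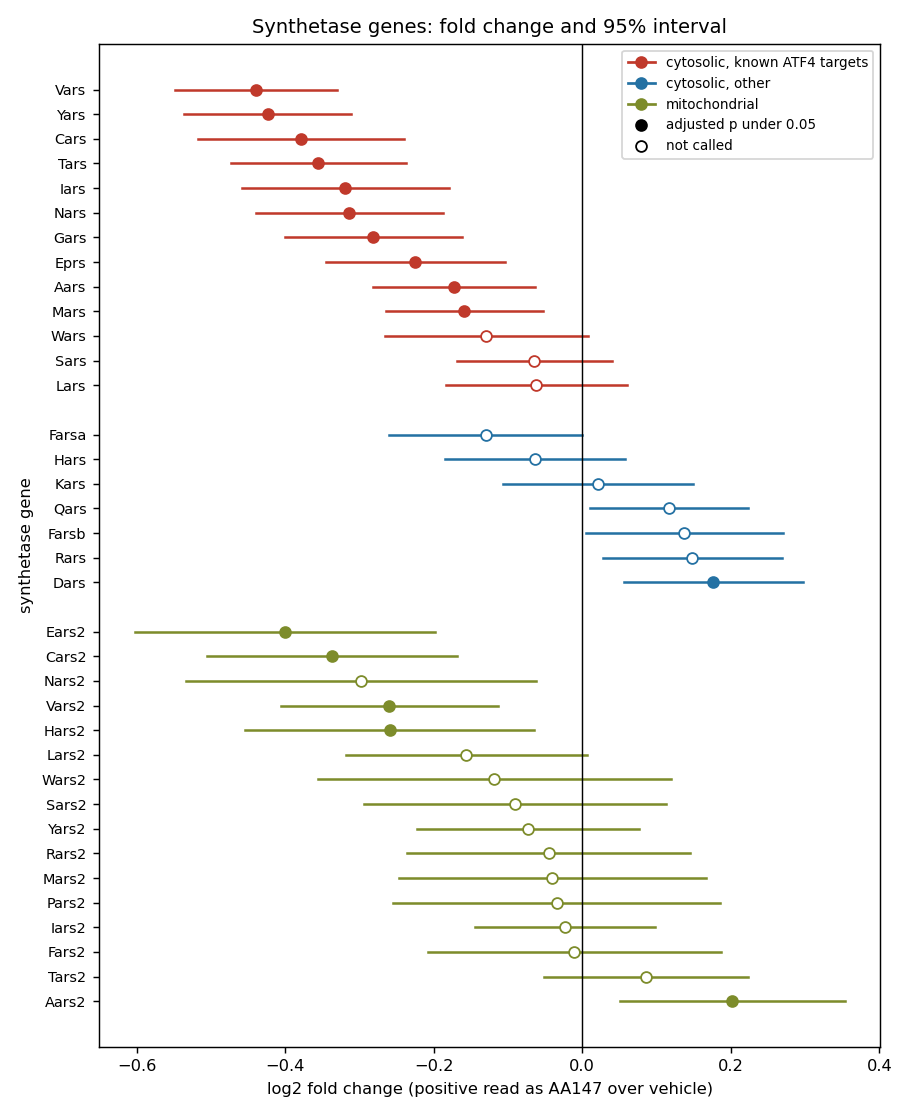
The log2 fold change of each synthetase gene (x axis, positive read as AA147 over vehicle) with its 95% interval as a line, in 3 groups of genes (y axis). Filled points have an adjusted p under 0.05. The 10 filled points among the known ATF4 targets all lie below 0, the single filled point among the other cytosolic genes lies above 0, and the mitochondrial genes have 4 filled points below 0 and 1 above.

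The lowest of all 36 members was Vars, the valine enzyme, with a mean of 19073 and a log2 fold change of -0.44 (SE 0.056, adjusted p 1.85e-13) per the authors' deposited table. Taken at face value, this fold change and mean imply 21957 normalized counts in vehicle and 16188 with AA147, a change of -26.3% (95% interval -31.7% to -20.5%). Yars, the tyrosine enzyme, stood next at -0.42 (SE 0.057, adjusted p 7.44e-12) per the authors' deposited table, with an implied 13197 in vehicle and 9837 with AA147. These were the pair of members with the smallest adjusted p.

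Cars, the cysteine enzyme, followed at -0.38 (SE 0.071, adjusted p 2.11e-06) and Tars, the threonine enzyme, at -0.36 (SE 0.060, adjusted p 1.12e-07) per the authors' deposited table. Iars for isoleucine at -0.32, Nars for asparagine at -0.31 and Gars for glycine at -0.28 had adjusted p-values from 2.16e-05 to 0.000113 per the authors' deposited table. Eprs, a fused protein that charges tRNAs for both glutamate and proline, fell by 0.22 on the log2 scale (SE 0.061, adjusted p 0.00257) per the authors' deposited table. The smallest called changes were those of Aars for alanine at -0.17 (SE 0.056, adjusted p 0.0134) and Mars for methionine at -0.16 (SE 0.054, adjusted p 0.0199) per the authors' deposited table. Both Aars and Mars lost their call once a trend on transcript length, GC content and expression was subtracted, at -0.11 and -0.12. Most of these changes were modest, since a log2 value of -0.28, that of Gars, stands for a change of -17.7%.

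The 3 listed targets that were not called were Wars at -0.13, Sars at -0.06 and Lars at -0.06 per the authors' deposited table, the enzymes for tryptophan, serine and leucine. Their 95% intervals reached down to -0.27, -0.17 and -0.18, so a fall as large as that of Vars lay outside all 3 intervals. The 5 listed targets with a motif match, Aars, Gars, Iars, Tars and Yars, were all called negative per the authors' deposited table, with a median of -0.32. Negative calls made up 11.1% of all tested genes and 19% of genes within the cytosolic range of means. The other 8 of the list, with no match or no window, had 5 negative calls and a median of -0.19. Among these, Cars, Lars, Nars, Vars and Wars had no window to search, at -0.38, -0.06, -0.31, -0.44 and -0.13. Vars, Cars and Nars hold 3 of the 6 lowest values of the list. Eprs, Mars and Sars had a window and no match, at -0.22, -0.16 and -0.06, and Eprs and Mars were called negative. The medians thus do not compare genes with and without the motif, and their difference was not tested.

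Dars, the aspartate enzyme, was the single called gene among the other cytosolic members, at 0.18 (SE 0.061, adjusted p 0.0250) and a mean of 4480 per the authors' deposited table. It lost its call after subtraction of the same trend, at 0.14, where Qars and Rars gained one at 0.15 and 0.16. Rars for arginine at 0.15 (adjusted p 0.0702) and Qars for glutamine at 0.12 (adjusted p 0.118) were not called in the authors' deposited table. Kars, the lysine enzyme, had one of the highest means at 15387 and a value of 0.02 (SE 0.065), with a 95% interval from -0.11 to 0.15, in the authors' deposited table. Gars, at a like mean of 16142, had an interval from -0.40 to -0.16. Farsa and Farsb encode the alpha and beta subunits of the phenylalanine enzyme, which work as a tetramer. They had values of -0.13 (SE 0.066, adjusted p 0.160) and 0.14 (SE 0.067, adjusted p 0.144) per the authors' deposited table, on either side of 0 and neither called. Hars for histidine lay at -0.06 (SE 0.062, adjusted p 0.537) per the authors' deposited table.

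Other groupings cut across the ATF4 list. Synthetases belong to 2 unrelated structural classes that differ in the fold of the catalytic domain. Of 9 class I cytosolic genes 5 were called negative, and of 10 class II genes 4, beside 19% of genes within the cytosolic range of means. Eprs was left out because its fused parts belong to different classes. Within class I these 5 calls were among 7 listed ATF4 targets, with 0 among the other 2 genes. Within class II the 4 calls were among 5 listed targets, with 0 among the other 5 genes. These splits reuse the list drawn up with earlier results known, so they add no separate evidence and were not tested.

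Several synthetases are held together in the multi-synthetase complex. Of the 8 complex members among the enzymes, 3 were called negative and 1 positive in the authors' deposited table, and of the 12 free-standing ones 7 and 0. Among genes within the cytosolic range of means the shares were 19% negative and 12.5% positive. Inside the complex, the listed targets Eprs, Iars, Lars and Mars had a median of -0.19, while Dars, Kars, Qars and Rars had one of 0.13. Among the free-standing genes the medians were -0.31 for 9 listed targets and -0.06 for the other 3. This split reuses the same list and was not tested either. The 3 scaffold proteins of the complex were not called: Aimp1 at 0.17 (adjusted p 0.101), Aimp2 at -0.02 and Eef1e1 at 0.17 (adjusted p 0.185) per the authors' deposited table. Transcripts for parts of 1 complex thus had values from -0.32, for Iars, to 0.18, for Dars, per the authors' deposited table.

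The mitochondrial enzymes charge the tRNAs that the organelle's own genome encodes. Their 16 genes had a median of -0.08 per the authors' deposited table, with 4 called negative and 1 positive. After subtraction of the trend on transcript length, GC content and expression the median was -0.16, with 5 called negative. Among the 6375 tested genes within their range of means, 374 to 3263, 23.7% were called, 12.2% negative and 11.5% positive, with a median of 0.02. Of those 6375 genes, 2897 had values below 0 and 3478 above it. A set of 14 mitochondrial members had values below 0 and 2 had values above it, but most were within their error.

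Ears2, the glutamate enzyme of mitochondria, was the lowest at -0.40 (SE 0.103, adjusted p 0.00118), with a mean of 581 per the authors' deposited table. Cars2 for cysteine had a value of -0.34 (SE 0.086, adjusted p 0.00101) and Vars2 for valine one of -0.26 (SE 0.074, adjusted p 0.00428) per the authors' deposited table. Hars2, for histidine, was called narrowly at -0.26 (SE 0.099, adjusted p 0.0459), and so was Aars2, for alanine, in the positive direction at 0.20 (SE 0.077, adjusted p 0.0461), per the authors' deposited table. When p-values were adjusted over every gene that had one, Hars2 and Aars2 were not called, at adjusted p-values of 0.0549 and 0.0552. Nars2, for asparagine, lay just past the limit at -0.30 (SE 0.120, adjusted p 0.0622) per the authors' deposited table. It was called at -0.31 with fold changes centred on abundant genes and at -0.37 with the trend subtracted.

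The remaining 10 mitochondrial members ranged from -0.16 for Lars2 to 0.09 for Tars2 per the authors' deposited table, and none was called. They include Iars2 at -0.02 (SE 0.062), the one with the largest mean count of the 16, Fars2 at -0.01 (SE 0.101), Mars2 at -0.04, Pars2 at -0.03 and Rars2 at -0.05 per the authors' deposited table. Sars2 at -0.09, Wars2 at -0.12 and Yars2 at -0.07 per the authors' deposited table complete them. Precision differed between the compartments. The median SE was 0.061 for the cytosolic members and 0.098 for the mitochondrial ones, and the smallest statistic called in the authors' deposited table was 2.58. A change had to reach 0.16 to be called at the first of these SEs and 0.25 at the second. With the median mitochondrial SE given to each cytosolic gene, an alternative chosen after the data were seen, 7 of the 13 listed targets would still be called negative and 0 of the other 7 cytosolic genes positive.

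The 2 sets differ widely in level. Per kb of canonical transcript, the cytosolic members had a median of 2671 mean normalized counts, with Cars lowest at 834 and Gars highest at 6648. The mitochondrial members had a median of 222 per kb, with Mars2 lowest at 47.2 and Tars2 highest at 1047. Tars2 alone among them stood above any cytosolic gene, passing Wars at 1001 and Cars. Gars and Kars, whose transcripts serve both compartments, held the first and second rank per kb at 6648 and 6451. All 20 cytosolic genes held 0.61% of the summed means of the authors' deposited table, and all 16 mitochondrial genes 0.057%. Summed over genes, the implied level of the listed ATF4 targets was 151337 in vehicle and 125811 with AA147, lower by a change of -16.9%. The same sums were 47920 and 49998 for the other cytosolic genes, a change of 4.34%, and 18066 and 17225 for the mitochondrial ones, a change of -4.65%.

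**Figure D2:**
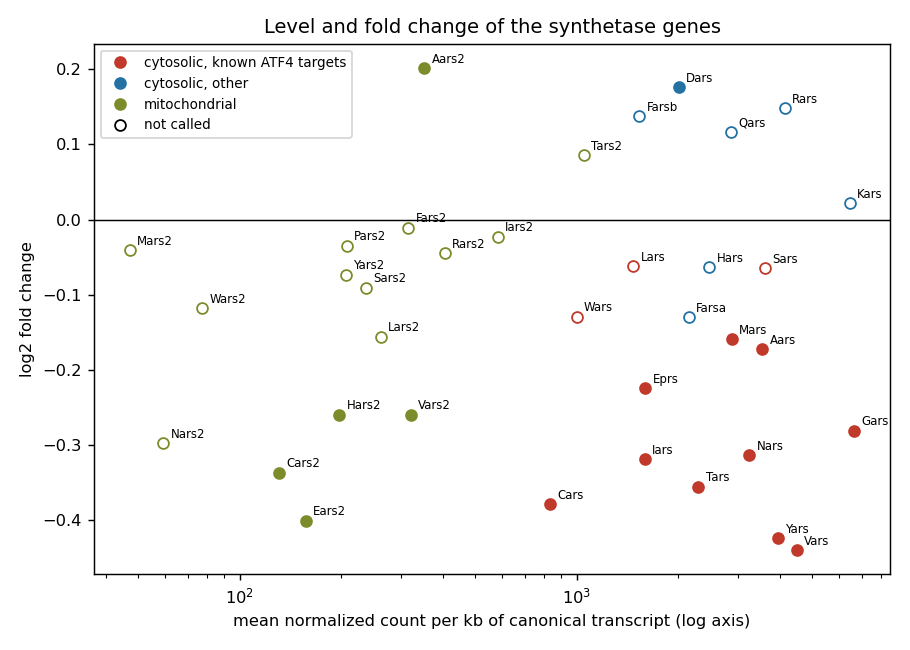
Mean normalized count per kb of canonical transcript (x axis, log scale) against log2 fold change (y axis) for each synthetase gene, coloured by group, with open points for genes not called. Known ATF4 targets and other cytosolic genes overlap in level, between 834 and 6648 per kb, and the called genes of the first lie below 0 and that of the second above it, while the mitochondrial genes lie at 47.2 to 1047 per kb.

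Setting each mitochondrial enzyme beside the cytosolic one for the same amino acid gave 17 pairs, with Eprs and Fars2 each used in 2 of them. The cytosolic value was the lower of the pair in 11 and the higher in 6. Both members were called negative in 3 pairs, which were Cars with Cars2, Vars with Vars2, and Eprs with Ears2. In 6 pairs the cytosolic gene was called negative and its partner was not called, and in 1 pair, Hars and Hars2, the mitochondrial gene was called alone. Both members went uncalled in 6 pairs. For comparison, 19% of genes within the cytosolic range of means were called negative, and 12.2% within the mitochondrial range. The pair counts were not tested against these shares.

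The 95% intervals lay apart in 4 of the 17 pairs. Tars and Tars2 were farthest apart, with log2 fold changes of -0.36 (SE 0.060) and 0.09 (SE 0.070) per the authors' deposited table. Aars and Aars2, called in opposite directions, had values of -0.17 and 0.20, Yars and Yars2 had values of -0.42 and -0.07, and Iars and Iars2 had values of -0.32 and -0.02 per the authors' deposited table. In the remaining 13 pairs the intervals overlapped, so a difference between the compartments was not resolved there. Cars and Cars2 at -0.38 and -0.34, and Nars and Nars2 at -0.31 and -0.30, nearly coincided in the authors' deposited table. The difference within a pair was not tested, because both fold changes come from the same libraries and their joint error is not given.

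**Figure D3:**
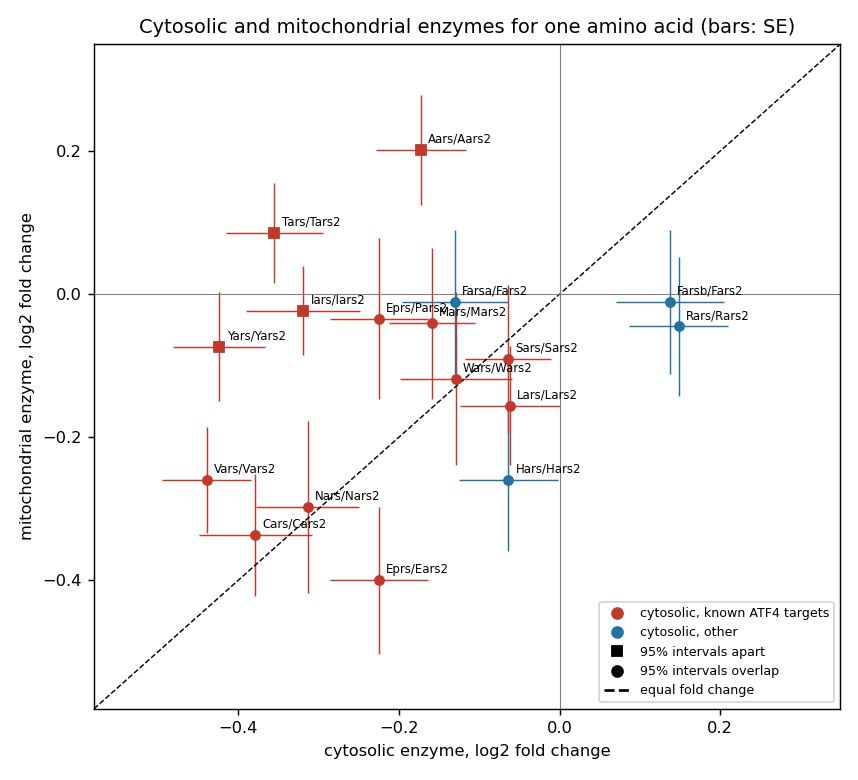
Log2 fold change of the cytosolic enzyme (x axis) and of the mitochondrial enzyme for the same amino acid (y axis), with bars of 1 SE, the dashed line marking equal values. Squares are the 4 pairs whose 95% intervals lie apart, all of them above the line, where the cytosolic value is the lower one.

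Calls among partners of the synthetases stand beside shares of 11.1% negative and 9.05% positive over all tested genes. The lists are short, and their counts were not tested against these shares. On a list of 10 genes that handle tRNA with the cytosolic enzymes, 0 were called negative and 2 positive in the authors' deposited table. The called genes were Pstk, a kinase in selenocysteine synthesis on tRNA, at 0.40 (SE 0.111, adjusted p 0.00316) and Trnt1, which adds the CCA end to tRNAs, at 0.22 (SE 0.082, adjusted p 0.0389) per the authors' deposited table. Dtd1, a deacylase of mischarged tRNA, had the lowest value at -0.32 (SE 0.144, adjusted p 0.104) and was not called, per the authors' deposited table. Xpot, the tRNA exporter, lay at -0.002 (SE 0.061) and Eef1a1, the elongation factor that carries charged tRNA to the ribosome, at -0.02 (SE 0.053) per the authors' deposited table. On a list of 7 mitochondrial partners, 0 were called negative and 1 positive, Gatb at 0.24 (SE 0.093, adjusted p 0.0458) per the authors' deposited table. Gatb is a subunit of the amidotransferase that makes mitochondrial glutaminyl-tRNA from the product of Ears2. The other subunits, Qrsl1 at 0.18 and Gatc at 0.02, were not called per the authors' deposited table.

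On the list of 28 other ATF4 pathway genes, 18 were called negative in the authors' deposited table, 0 were called positive and 10 were not called, with a median of -0.41. Over all tested genes the shares were 11.1% negative and 9.05% positive. Atf4 itself, with a mean of 15284, fell by 0.51 (SE 0.061, adjusted p 2.67e-15) per the authors' deposited table. The lowest values were those of Aldh18a1, which starts proline synthesis, at -0.75, Psph, the last enzyme of serine synthesis, at -0.69, and Slc7a5, a transporter of large neutral amino acids, at -0.67 per the authors' deposited table. Cth, which makes cysteine from cystathionine, at -0.65, Trib3 at -0.62 and Atf5, a related transcription factor, at -0.52 came next per the authors' deposited table. The other 11 called genes lay between -0.51 for Psat1, a serine synthesis enzyme, and -0.18 for Slc6a9, a glycine transporter, per the authors' deposited table. Every listed synthetase target thus had a smaller fold change than Atf4, with Vars nearest at -0.44 per the authors' deposited table. Ddit3, Cebpg and Ppp1r15a had values above 0, at 0.07, 0.12 and 0.24 per the authors' deposited table, and were not called. Of the 4 kinases that phosphorylate eIF2alpha, 0 were called negative and 1 positive, Eif2ak1 at 0.20 (SE 0.076, adjusted p 0.0435) per the authors' deposited table. The amino acid sensor Eif2ak4 lay at 0.05 (adjusted p 0.665) and the endoplasmic reticulum sensor Eif2ak3 at -0.19 (adjusted p 0.0844) per the authors' deposited table. The link between Atf4 and the synthetases was not tested, and the negative sign of the pathway list was known when the members were chosen.

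**Figure D4:**
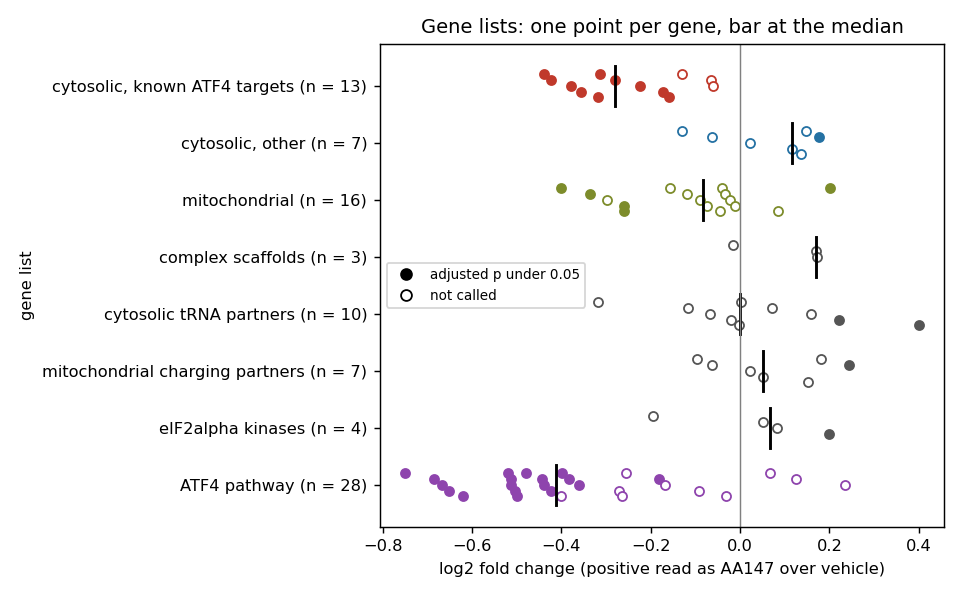
Log2 fold changes (x axis, positive read as AA147 over vehicle) of the 3 synthetase groups, their partner lists, the eIF2alpha kinases and the ATF4 pathway genes (y axis), 1 point per gene, filled where called, with a black bar at each median. The medians are -0.28 for the known ATF4 targets and -0.41 for the pathway genes, and the partner lists lie near 0 or above it.

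Some members share sequence with a neighbour, which non-stranded reads cannot always assign. In GENCODE M39 gene models, exons of the opposite-strand gene Dnm1l cover 50.3% of the exon bases of Yars2, and those of Rab3gap2 cover 38.4% of Iars2. Exosc6, on the same strand, covers 23% of the exon bases of Aars. Dnm1l was called at 0.17 (adjusted p 0.0222), Rab3gap2 lay at 0.06 and Exosc6 at -0.12 per the authors' deposited table. Ubfd1 covers 11% of the exon bases of Ears2, at a mean of 1117 that is above the 581 of Ears2, Carkd covers 10.5% of Cars2, and Lyrm4 covers 8.27% of Fars2. Carkd lay at 0.02 per the authors' deposited table. The values of all these members are uncertain by an amount that also depends on the neighbour's level and was not measured. Dnm1l had a mean of 4930 beside 1390 for Yars2, and Rab3gap2 2819 beside 3263 for Iars2. Exosc6 had a mean of only 1186 beside 20548 for Aars. The intervals that lay apart for 3 of the 4 pairs above rest on Yars2, Iars2 or Aars, of which Aars had by far the weakest neighbour for its level. Vars and the opposite-strand gene D17H6S56E-5 share 7.25% of the exon bases of Vars, and that neighbour had a mean of 20242 and a value of -0.06 (SE 0.056) per the authors' deposited table.

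Hars and Hars2 lie head to head, and their gene models overlap over 9.8% of the exon bases of Hars and 5.85% of those of Hars2. Hars at -0.06 and Hars2 at -0.26 differed in call in the authors' deposited table, although their 95% intervals overlapped. Yars starts 218 bases from S100pbp on the other strand, and the pair was called in opposite directions, S100pbp at 0.34 (adjusted p 0.00545) and Yars at -0.42 per the authors' deposited table. Fars2, Ears2 and Sars2 likewise lie head to head with Lyrm4, Ubfd1 and Mrps12, at -0.29, 0.10 and -0.06 per the authors' deposited table, and these 3 neighbours were not called.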

How the data were processed

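RNA-seq of 6 libraries was compared by the authors, 3 with AA147 and 3 with vehicle. Per the submitters' processing notes, DESeq2 and the build mm9 were used; the aligner, read counter and annotation are not given in the sources used here. The authors deposited, per the file headers, a mean normalized count (a signal averaged over libraries), a log2 fold change with its SE, a score (the statistic, equal to fold change over SE) and each gene's p-value with its adjusted form over 13597 genes. The depth of each library is unknown.

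Members and lists were chosen with earlier results of these data known. Named genes were all 36 members and, from each other list, up to 6 called genes with the largest fold change, Atf4, and genes whose role the text needs. Symbols were matched to RefSeq for GRCm38.p6 (35 by symbol, Mars by an older one; Vars2 is also an older name of Vars). Lengths are those of GENCODE M39 canonical transcripts, which need not be those expressed. The 95% intervals are fold change ± 1.96 SE. Implied group levels assume that the mean weighs both groups equally. Motifs and exon overlaps were counted by script. Some items are not reported here. Calls were tested on simulated data. The tools were statsmodels 0.14.6 and pandas 2.3.3 under Python 3.11.15. The alternatives were other limits and adjustments, a null interval, centring, a robust trend on length, GC content and expression, group means, a mean of at least 100, and omission of Gars and Kars.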

Additional observations from a re-analysis of the deposited data

How the results depend on the processing

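No paired analysis was possible because only 1 line per gene was analysed here, over all libraries, and leaving out replicates was not run for the same reason. Negative calls among the 13 listed ATF4 targets went from 10 to 5 with a Bonferroni adjustment and to 2, Vars and Yars, against a null interval of 0.2, both stricter by construction. The 4 negative mitochondrial calls went to 0 under each of these 2. The single positive call among the other cytosolic genes, Dars, went to 0 at an adjusted p under 0.01, with Bonferroni, with the null interval and with the median mitochondrial SE (chosen after the data were seen). With the trend subtracted this count was 2, Qars and Rars in place of Dars, and the cause was not tested. The positive mitochondrial call, Aars2, went to 0 at an adjusted p under 0.01, with Bonferroni, with the null interval, with the adjustment over all genes with a p, and with centring on abundant genes. The other 56 group values stayed within 1.5 times the count or, for medians, moved by less than the members' median SE. Among them was every median under centring, trend subtraction, group means and omission of Gars and Kars. The mitochondrial median nevertheless went from -0.08 to -0.16 with the trend subtracted. Of 252 values of single members, 212 stayed on the same side of the limit, called or not, 36 lost a call, 4 gained one (Qars, Rars and, under 2 settings, Nars2) and 0 reversed. Vars and Yars kept their call under all 7 settings run on single members, and Aars and Mars lost theirs with the trend subtracted. Centring on 12 reference genes, chosen after the data were seen, changed no member's call.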
